A study of Mus musculus with 2 samples.

Results

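Isolated CTCF sites were places on mouse chromosomes 1 to 19 where CTCF chromatin immunoprecipitation (ChIP) reads gathered with no comparable gathering within 100 kb on either side. They numbered 1879 of 26066 sites in all. A site was a 1-kb bin holding at least 10 ChIP reads and at most 10 reads of whole-cell extract, after each read's 5′ end had been moved 102 bp towards its 3′ end. Adjacent bins of this kind were merged and the highest was kept. An isolated site held 10 to 39 ChIP reads. The other 22148 sites of 10 to 39 reads had at least 1 other site within 100 kb and are called neighboured sites here. The isolated sites were thus chosen by their ChIP reads, extract reads and distances, and those values are given as descriptions without a test. Positions are in mouse build mm8, counted from 1.

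The data were 1 library of DNA immunoprecipitated with an antibody to CTCF and 1 library of whole-cell extract, which is sonicated chromatin that was not immunoprecipitated. The cells of both libraries were V6.5, male mouse embryonic stem (ES) cells with the genotype 129SvJaexC57BL/6, used between passages 10 and 15. The cells had been grown on irradiated feeder fibroblasts and passaged on gelatin to remove them, and no treatment separates the libraries. The ChIP library held 2325631 reads on chromosomes 1 to 19 and the extract 4592161. With 1 library per group there was no replicate, so all intervals (95%, exact Poisson or Clopper-Pearson) cover counting error only.

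CTCF is a zinc-finger protein that binds a long, well-conserved DNA motif. It can block an enhancer from acting on a promoter, and with cohesin, the ring complex that extrudes chromatin loops, it marks the ends of many loops and the borders of contact domains. Its sites are often grouped near genes and domain borders, and a site far from any other is the simplest case in which the read pattern of a single bound position can be seen. The genome of the build used for these reads (mm8) was not used here, so no sequence, motif or gene is given for the sites.

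Isolated sites made up 7.82% of the 24027 sites of 10 to 39 ChIP reads (95% interval 7.48 to 8.17). Bins meeting the read limits were themselves 1.5% of the 1935906 bins holding a read. The sites with fewer reads were more often isolated. The share without a neighbour within 100 kb was 11.5% (10.8 to 12.3) among sites of 10 to 14 ChIP reads and 8.75% (8.01 to 9.54) among those of 15 to 19. It was 5.87% (5.34 to 6.43) at 20 to 29 reads and 2.55% (2.06 to 3.12) at 30 to 39. Of the 2039 sites with 40 or more reads, outside the isolated set by its upper limit, 34 had no neighbour within 100 kb, or 1.67% (1.16 to 2.32).

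An isolated site held a median of 15 ChIP reads, with 12 and 20 at the 25th and 75th percentile. A neighboured site held a median of 19, with 13 and 26. The median was lower at isolated than at neighboured sites on 19 of 19 chromosomes. Extract reads averaged 2.62 per isolated site and 3.17 per neighboured site, and were also lower on 19 of 19 chromosomes. No extract read fell in 186 isolated sites (9.90%, 95% interval 8.59 to 11.3) and in 1407 neighboured sites (6.35%, 6.04 to 6.68). Summed over sites and scaled by library totals, ChIP exceeded extract 12.6-fold at isolated sites (12.2 to 13.0) and 12.6-fold at neighboured sites (12.5 to 12.7). The read limits held these ratios up in both groups, and they are given as descriptions.

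**Figure D1:**
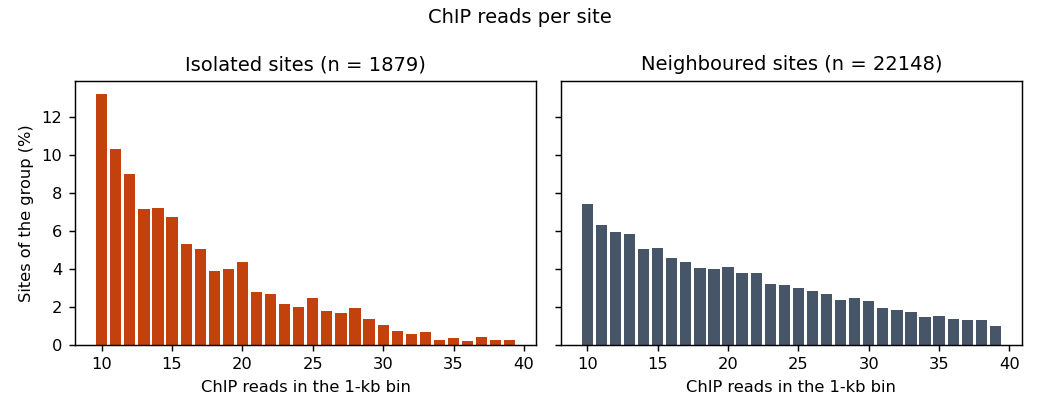
Share of isolated sites (left) and neighboured sites (right) at each number of ChIP reads in the 1-kb bin. Sites of 10 reads were 13.3% of the isolated and 7.41% of the neighboured sites, and sites of 39 reads were 0.266% and 1.01%.

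The read limits kept extract reads low beside ChIP reads at each isolated site. The interval of the ratio of ChIP to extract reads reached 1 in 12 isolated sites (0.639%) and in 84 neighboured sites (0.379%), while it lay above 1 in 99.6% of all sites. Nothing is read from these shares, since the sites were chosen on this contrast. The largest number of extract reads at an isolated site was 9, found at 8 sites. That with the most ChIP reads, at chr13:70458001-70459000, had 18 of them, a ratio of 3.95 to the extract (1.69 to 9.98). Another, at chr1:131654001-131655000, had 10, and the interval of its ratio, 0.801 to 6.10, includes 1. The 2 extract lanes put like shares of their reads in isolated sites, 0.106% and 0.109% (Fisher's exact test on reads, two-sided, p = 0.484, adjusted p = 0.484 over 3 tests).

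Plus-strand and minus-strand reads lay on opposite sides of the summit. The summit of a site was the median moved position of the odd-numbered ChIP reads in its bin, and the even-numbered reads, not used to place it, were then counted around it. At isolated sites 84.2% of the 16842 such reads within 500 bp (95% interval 83.7 to 84.8) lay on the side of the summit that their strand predicts, plus-strand 5′ ends upstream and minus-strand ends downstream. At neighboured sites the share was 83.9% of 240658 reads (83.7 to 84.0). The difference of 0.385 percentage points did not pass (Fisher's exact test, two-sided, p = 0.193, adjusted p = 0.29). With summits from even-numbered reads it was 0.705 points (Fisher's exact test, unadjusted p = 0.016). Much of both shares was fixed by the move. Reads were taken by moved position, but their side was set by the 5′ end before the move. Each read with a moved position within 100 bp of the summit thus counted as on the predicted side, whatever its strand. Such reads were 62.3% at isolated and 61.3% at neighboured sites. When reads were not moved, the shares on the predicted side were 76.9% and 77.4%. Counted within 350 bp, the plus-strand median was 98 bp upstream and the minus-strand median 101 bp downstream at isolated sites, and both were 97 bp away at neighboured sites.

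**Figure D2:**
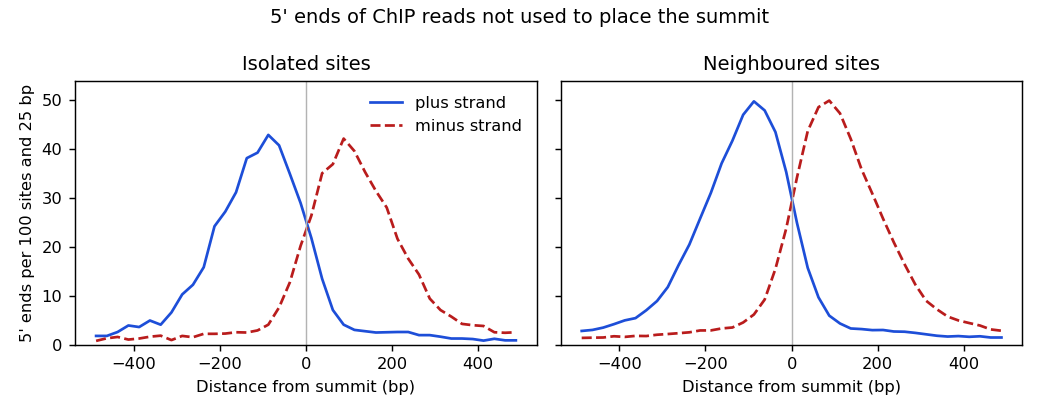
Counts of 5′ ends of even-numbered ChIP reads per 100 sites in 25-bp steps, by distance in bp from a summit placed with the odd-numbered reads, for isolated (left) and neighboured sites (right). Plus-strand ends (solid) and minus-strand ends (dashed) formed a pair of peaks on either side of the summit, at 42.8 and 42.0 ends per 100 isolated sites and 49.6 and 49.8 per 100 neighboured sites.

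The distance between the strands could be measured at 1658 isolated sites that had at least 3 reads on each strand within 500 bp of the bin centre. The median offset, the minus-strand median less the plus-strand median, was 188 bp at isolated sites (25th to 75th percentile 145 to 232) and 178 bp at 20357 neighboured sites (136 to 223). It was higher at isolated sites on 16 of 19 chromosomes. The offset was above 0, as it is where fragments cover a shared position, at 97.4% of isolated sites (96.5 to 98.1) and at 95.9% of neighboured sites (95.6 to 96.2). By ChIP reads, the medians were 183 bp at isolated and 177 bp at neighboured sites of 10 to 14 reads, 191 and 176 bp at 15 to 19, 188 and 177 bp at 20 to 29, and 203 and 182 bp at 30 to 39. Near the limit of distance the order was the other way, with 180 bp at isolated sites with a neighbour at up to 110 kb and 188 bp at those whose nearest site was over 90 and up to 100 kb away. A window centred on the summit, an alternative chosen after seeing the data, gave 204 bp at isolated and 199 bp at neighboured sites. These offsets are descriptions, and no test of their difference was run.

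Reads lay closer to the summit at isolated sites than at neighboured sites of like read number in each of the 4 read classes. The difference passed in 3 of them. Of the even-numbered reads with a moved position within 500 bp of the summit, 58.1% lay within 100 bp at isolated sites of 10 to 14 ChIP reads (95% interval 56.8 to 59.4), against 54.7% at neighboured sites of that class (54.3 to 55.2). The shares were 62.4% and 59.3% at 15 to 19 reads, and 65.2% and 62.8% at 20 to 29 reads. These 3 differences passed over the 8 tests made in classes (Fisher's exact test, two-sided, adjusted p = 1.15e-05, 3.81e-04 and 7.09e-04). The reads tested were also part of the counts that chose and classed the sites, and reads of a site are not independent. The p-values of nearness are thus descriptions only. At 30 to 39 reads the shares were 67.3% and 65.2%, and the difference did not pass (Fisher's exact test, adjusted p = 0.0786). Over all isolated and neighboured sites the shares were 62.3% and 61.3%, a difference of 1.01 points (Fisher's exact test, p = 0.00925, adjusted p = 0.0277 over 3 tests), and the share was higher at isolated sites on 14 of 19 chromosomes. Against the 12377 neighboured sites with no other site within 10 kb the difference was 0.855 points (Fisher's exact test, p = 0.0319). Sites merged from adjacent bins were 4.90% of isolated and 9.75% of neighboured sites, and their part in the difference was not tested.

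Read density beside the sites also differed between the groups. The rule allowed no other site within 100 kb of an isolated site, which can limit reads in these flanks. The even-numbered reads were left out of the summit but not of the counts that chose the sites. The differences in nearness can thus reflect how the sites were chosen, and that part was not tested. At 1 to 5 kb there were 0.771 ChIP reads per kb around isolated and 1.20 around neighboured sites. By class, the densities were 0.707 and 1.14 at 10 to 14 reads and 0.770 and 1.16 at 15 to 19. They were 0.8625 and 1.226 at 20 to 29 reads and 0.954 and 1.32 at 30 to 39. With the density of each class subtracted, the shares within 100 bp were 60.3% and 58.1% at 10 to 14 reads, 64.3% and 62.0% at 15 to 19, 66.8% and 64.9% at 20 to 29 and 68.7% and 66.9% at 30 to 39. Over all sites they were 64.2% and 63.7%. The tests count reads of 1 library, and reads of 1 site share their source, so the p-values are too small. The pooled difference was 4.45 points when adjacent bins were not merged. It did not pass under 5 other settings of the whole set, among them reads counted within 250 bp in place of 500 bp (0.616 points, Fisher's exact test, p = 0.116), and it was -0.126 points when reads were not moved.

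The side of the summit was also compared within classes. Reads within 100 bp of the summit count as on the predicted side by construction. These tests thus overlap with those of nearness above and are no separate support for them. The share on the predicted side was 81.9% at isolated and 79.8% at neighboured sites of 10 to 14 reads (Fisher's exact test, two-sided, adjusted p = 5.85e-04), and 83.7% and 82.6% at 15 to 19 reads (adjusted p = 0.0786). It was 86.0% and 84.8% at 20 to 29 reads and 88.4% and 86.3% at 30 to 39 reads (Fisher's exact test, adjusted p = 0.0239 for each). The pooled comparison, which did not pass, sets isolated sites with fewer reads against neighboured sites with more. The read density beside the sites, given above, differed between the groups in each class, and its part in the side of the summit was not tested.

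Pooled over sites, both strands were read about equally. Of the 31499 ChIP reads in isolated sites, 50.3% were on the plus strand (49.7 to 50.8). By an exact binomial test, two-sided, with Benjamini-Hochberg adjustment over all sites, 0 isolated sites passed 0.05, against 0.0153% of all sites. At an unadjusted p under 0.05 there were 69 isolated sites, or 3.67%, close to the 3.61% of all sites. An isolated site at chr4:145391001-145392000, with 15 plus-strand and 0 minus-strand reads, had an adjusted p of 0.159 in this exact test, so a site at the median of 15 reads could not pass and the count of 0 says nothing of its balance. Reads of 1 strand only were held by 6 isolated sites (0.319%) and 19 neighboured sites (0.0858%).

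Most isolated sites lay not far beyond the limit of distance. The median was 167 kb, and the 25th, 75th and 95th percentiles were 127, 263 and 610 kb. It exceeded 200 kb at 727 isolated sites, 500 kb at 147, 1000 kb at 31 and 2000 kb at 6. For neighboured sites the median was 13 kb. The gaps on both sides of an isolated site were often unequal, the longer being a median of 1.87 times the shorter among the 1865 with a site on both sides.

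**Figure D3:**
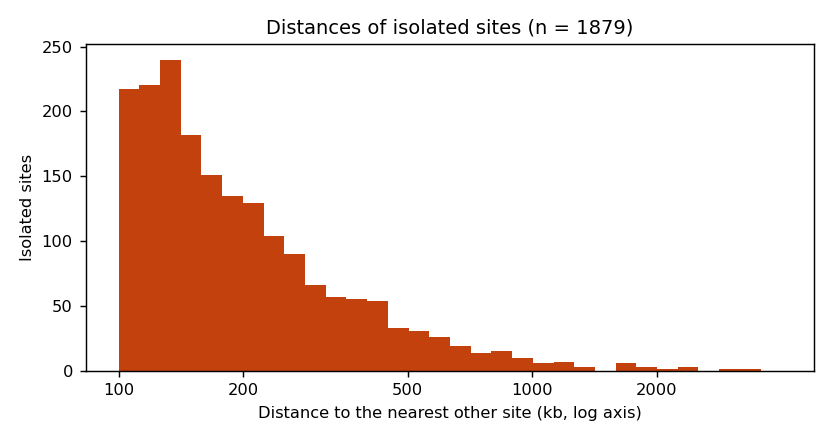
Number of isolated sites by distance to the nearest other site in kb on a log axis. Bars have equal width on the log axis. Most sites lie near the limit of 100 kb, with a median of 167 kb and a largest value of 3301 kb.

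The most remote site was chr3:45472001-45473000, 3301 kb and 3470 kb from its neighbours. It held 10 ChIP reads (95% interval 4.80 to 18.4), 6 on the plus and 4 on the minus strand, and 0 extract reads. The next, chr14:110556001-110557000, had gaps of 4908 and 3117 kb. Its ChIP reads were 25 (16.2 to 36.9) beside 3 of extract, a ratio of 16.5 (5.02 to 85.2). Its 13 plus-strand and 12 minus-strand reads were offset by 201 bp. A pair of remote sites were each other's nearest site, chr14:89280001-89281000 with 19 ChIP and 3 extract reads and chr14:91647001-91648000 with 18 and 2. They lay 2367 kb apart, and the gap beyond the second was 5650 kb.

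Other remote sites had like read numbers. The ChIP reads were 19 at chr1:102387001-102388000 and 10 at chr1:148985001-148986000, with 5 and 4 of extract, and the nearest sites lay 2485 and 2031 kb away. At chr12:63811001-63812000 there were 26 ChIP reads and 3 of extract at 1924 kb, and at chr18:28220001-28221000 there were 16 and 1 at 1969 kb. At chr9:18258001-18259000 they numbered 11 and 0 at 1877 kb, and at chr2:87281001-87282000 they numbered 13 and 3 at 1755 kb. All 10 of the most remote sites held between 10 and 26 ChIP reads and no more than 5 of extract. In the gaps beside these 10 most remote sites, 22.5% to 44.5% of 1-kb bins held no read of either library, against 19.5% over chromosomes 1 to 19. Such bins cannot show a site, and their part in these distances was not tested.

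Every chromosome had a site several times farther out than the limit. Among the most remote sites of each chromosome, that of chromosome 13, chr13:78665001-78666000, was the least remote, at 826 kb, with 21 ChIP and 4 extract reads. On chromosome 19 it was chr19:52132001-52133000, with 10 and 6 reads at 844 kb, and on chromosome 16 chr16:63814001-63815000, with 19 and 1 at 852 kb. Further out were chr15:18766001-18767000, with 23 and 2 reads at 1626 kb, chr5:60285001-60286000, with 19 and 0 at 1260 kb, and chr8:102493001-102494000, with 22 and 2 at 1130 kb. In these libraries the most remote site of a chromosome held between 10 and 26 ChIP reads.

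The isolated sites with the most ChIP reads were less remote. There were 5 with 39 reads (27.7 to 53.3). At chr3:121299001-121300000 the extract held 1 read and the nearest site was 120 kb away. At chr15:38908001-38909000 the values were 1 read and 139 kb, and at chr13:40988001-40989000 they were 2 reads and 108 kb. At chr7:137922001-137923000 they were 2 reads and 300 kb, and at chr5:33064001-33065000 they were 7 reads and 130 kb. A site at the median, chr4:84139001-84140000, had 15 ChIP reads, 10 on the plus and 5 on the minus strand, beside 3 of extract, a ratio of 9.87 (2.79 to 53.2), with the nearest site at 169 kb.

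Read numbers and positions were also described by distance class, where the reads of both libraries and the distances are values the rule used. The summed ChIP-to-extract ratio was 12.3-fold (11.8 to 12.8) at the 1152 isolated sites with a neighbour between 100 and 200 kb, 13.2-fold (12.5 to 14.01) at the 580 between 200 and 500 kb and 13.2-fold (11.7 to 14.8) at the 147 beyond 500 kb. Median ChIP reads were 15, 14 and 14, and mean extract reads 2.79, 2.40 and 2.24. The share of even-numbered reads within 100 bp of the summit was 61.8% (60.9 to 62.7), 62.4% (61.0 to 63.8) and 66.1% (63.4 to 68.8) in the same order. ChIP reads at 1 to 5 kb were, in the same order, 0.824, 0.708 and 0.599 per kb, and their part in these shares was not tested.

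The values just inside and just outside each limit of the rule were as follows. The 172 sites of 10 to 39 reads with a neighbour at over 100 and up to 110 kb held a median of 16 ChIP reads and a mean of 2.94 extract reads. The 289 sites just outside, at over 90 and up to 100 kb, held 16 and 2.73. Just inside, chr2:84924001-84925000 had 35 ChIP reads and 6 of extract, with a site at 101 kb. Just outside, chr3:135668001-135669000 had 32 and 4, with a site at 100 kb, and it was 1 of 31 sites at exactly that distance, which were counted as neighboured. There were 249 isolated sites of exactly 10 reads, beside 260 bins of 9 reads that also lay over 100 kb from any site, with means of 2.38 and 2.16 extract reads. At the upper limit there were 5 isolated sites of 39 reads and 7 sites of 40 without a neighbour, with means of 2.60 and 4.43 extract reads. A further 25 remote bins of 10 to 39 ChIP reads were left out because they held over 10 extract reads, 37.5 on average.

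The surroundings of isolated sites held fewer CTCF sites than those of neighboured sites well beyond the distance that chose them. At 100 to 500 kb, which the rule did not use, there were 7.93 sites per Mb around isolated and 20.4 around neighboured sites, a ratio of 0.389. Chromosomes 1 to 19 as a whole held 10.8 sites per Mb. The value was lower around isolated sites on 19 of 19 chromosomes, where it ran between 6.02 and 10.7 per Mb, against 12.03 to 26.6 around neighboured sites. These ranges do not overlap, but neighboured sites were chosen for having a site nearby. The density around isolated sites differed less from that of all sites on the same chromosome, and not evenly. It was 8.275 against 8.335 per Mb on chromosome 12, and 10.7 against 17.5 on chromosome 11. At 500 to 1000 kb the densities were 8.79 and 18.0 per Mb. Windows of nearby sites overlap, so no test was run.

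Reads outside sites were also fewer there. At 100 to 500 kb the ChIP library held 0.661 reads per kb around isolated and 0.965 around neighboured sites, with 0.710 over chromosomes 1 to 19. The extract held 1.83 and 2.36, with 1.89 over these chromosomes. Both were lower around isolated sites on 19 of 19 chromosomes. Isolated sites thus lay in surroundings a little below the chromosome average, and neighboured sites in surroundings above it. Bins without a read of either library made up 19.1% around isolated and 11.1% around neighboured sites at this distance. Per Mb of bins holding a read, the site densities were 9.80 and 22.9, a ratio of 0.428.

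**Figure D4:**
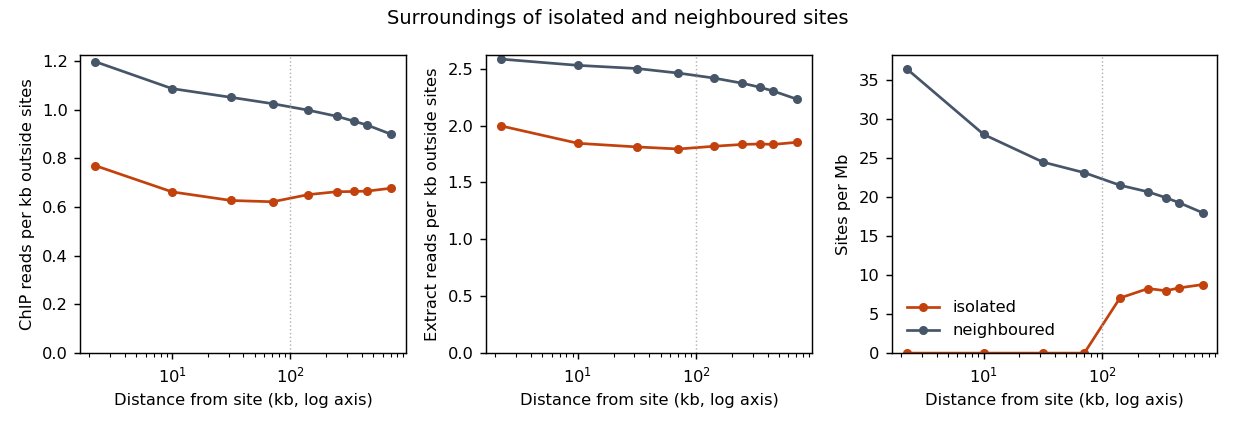
ChIP reads per kb (left), extract reads per kb (middle), both outside sites, and sites per Mb (right) by distance from isolated and neighboured sites in kb on a log axis, where each point is a distance class at its geometric mean and the dotted line marks 100 kb. The values around isolated sites lay below those around neighboured sites in every class, and the absence of sites within 100 kb is the rule itself.

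The density of sites around neighboured sites declined with distance, with 23.1 per Mb at 50 to 100 kb and 19.3 at 400 to 500 kb. Around isolated sites it was 7.07 per Mb at 100 to 200 kb and 8.36 at 400 to 500 kb. No site lay at 100 to 500 kb from 147 isolated sites (7.82%, 95% interval 6.65 to 9.13) and from 121 neighboured sites (0.546%, 0.454 to 0.652). For isolated sites these are the 147 whose nearest site lay beyond 500 kb, a distance the rule used. The neighboured sites had a site within 100 kb by definition, so the shares differ in meaning. The nearest site of an isolated site held a median of 16 ChIP reads, against 20 for that of a neighboured site. It held 40 or more reads for 1.86% of isolated (1.30 to 2.58) and 8.35% of neighboured sites (7.99 to 8.72).

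Isolation depended on the limit of 10 reads. Bins of 7 to 9 ChIP reads and at most 10 extract reads, not adjacent to the site, lay within 100 kb of 684 isolated sites (36.4%, 34.2 to 38.6) and of 76.9% of neighboured sites. The share of isolated sites was 61.9% with bins of 5 to 9 reads counted. Where sites needed only 8 ChIP reads it was 15.4%, but of another set of 1822 isolated sites. Only bins of 7 reads were counted there, so the value is not comparable with 36.4%. In the reported setting, the density of bins of 7 to 9 reads within 100 kb was 2.66 per Mb around isolated and 8.99 around neighboured sites. Over chromosomes 1 to 19 it was 4.26. The weaker bins had the same strand order. Of the 937 around isolated sites that adjoined no site, 469 had 3 reads on each strand, and their offset was above 0 in 91.3% (88.3 to 93.7) with a median of 180 bp. On the predicted side of the summit lay 77.4% of their even-numbered reads (76.1 to 78.7). The share was 81.9% at isolated sites of 10 to 14 reads and 84.2% at all isolated sites. It rose with read number among isolated sites, to 88.4% at 30 to 39 reads, so these values are not compared at like read number. The remaining isolated sites had no such bin at this depth, which does not show that no weaker binding was there.

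Successive isolated sites were counted as runs. The gap between successive isolated sites is shared by both and exceeds 100 kb for both, so the rule itself raises the counts of runs. Of the 1879, 561 stood singly between sites that were not isolated, and 844 (44.9%) lay in 200 runs of 3 or more. The nearest site was itself without a neighbour within 100 kb for 845 (45.0%). The longest run held 15 isolated sites at chr6:9185001-16929000, over 7.74 Mb, and is named after its values were seen. Its sites held between 10 and 22 ChIP reads and between 0 and 9 extract reads. Runs of 10 lay at chr16:39236001-41756000 and chr16:66109001-72101000, and a run of 11 lay at chr1:67573001-71223000.

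Isolated sites were found on every chromosome. Their number per Mb ran between 0.601 per Mb on chromosome 19 (0.419 to 0.836) and 0.935 on chromosome 13 (0.769 to 1.13), and these intervals overlap. The density of all sites ran between 7.62 per Mb on chromosome 3 and 17.5 on chromosome 11. As a share of sites of 10 to 39 reads, isolated sites were 12.1% on chromosome 13 (10.1 to 14.4), 11.1% on chromosome 16 (8.96 to 13.5) and 11.04% on chromosome 12 (9.09 to 13.2). They were 4.62% on chromosome 11 (3.73 to 5.67), 4.62% on chromosome 19 (3.24 to 6.36) and 5.28% on chromosome 7 (4.27 to 6.45).

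**Figure D5:**
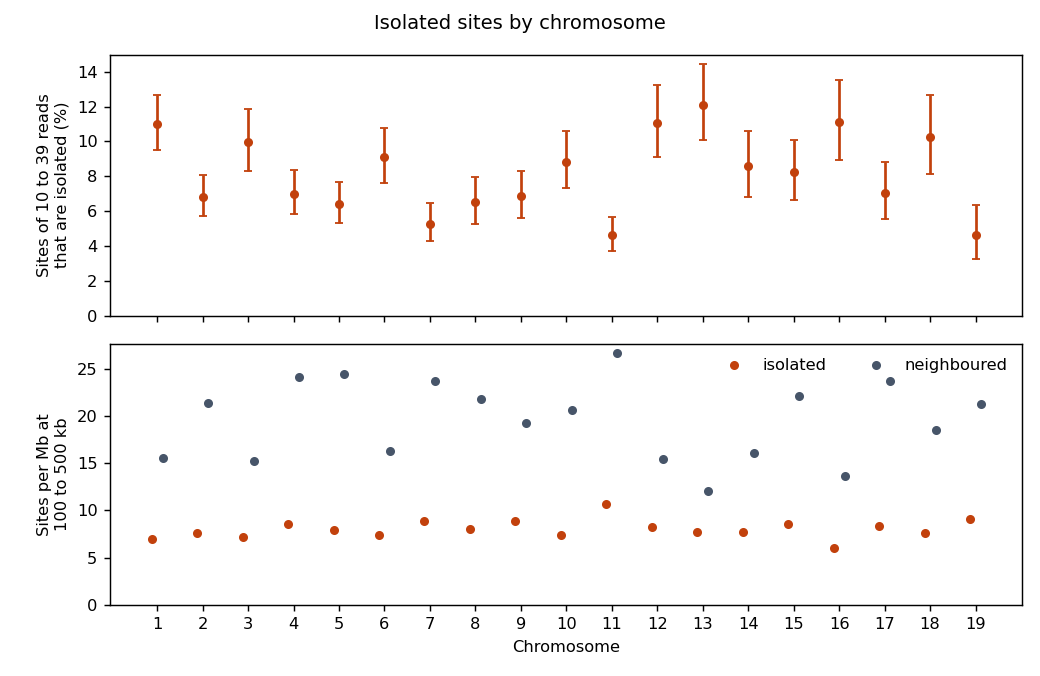
Share of sites of 10 to 39 ChIP reads that were isolated, with 95% exact binomial intervals (top), and sites per Mb at 100 to 500 kb from isolated and neighboured sites (bottom), for chromosomes 1 to 19. The share ran from 4.62% to 12.1%, and the density around isolated sites was below that around neighboured sites on each chromosome.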

How the data were processed

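The authors deposited 1 line per aligned read of 36 bases, with chromosome, start, end, strand and lane and read number, and these positions are the unit used. Per the submitters' processing notes the build was mm8. For the aligner and any read filter, nothing was given in the sources used here. Per the labels' protocols, libraries were amplified by 15 cycles of PCR. Each position and strand occurred once per library, so PCR copies are unknown and counts have a ceiling. Starts were taken as counted from 0, which no source states, so positions, printed counted from 1, may be off by 1.

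Reads were counted in fixed 1-kb bins, and the rule stated in the results was applied, with distances between the kept bins. Of the isolated sites, 14 had a site on 1 side only. Background reads were counted in bins with under 10 ChIP reads and at most 10 extract reads, between the first and last bin with a read. Held-out reads were the even-numbered ones, left out of the summit but not of the counts that chose the sites. Fisher's exact tests were adjusted by Benjamini-Hochberg. Sites named are the 10 most remote, the most remote of chromosomes, the 5 with most ChIP reads, the median, those with most extract reads, the most strand-biased, and those nearest the distance limit. The rule, members and lists were chosen with earlier results of these data known. Python 3.11.15, numpy 2.4.6, pandas 2.3.3 and scipy 1.17.1 were used, and the code was tested on simulated data.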

Additional observations from a re-analysis of the deposited data

How the results depend on the processing

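Intervals cover counting error in 1 library per group. With no replicate, none was left out. No paired analysis was possible because there was 1 library per group. The sequence alternatives were not run. Where a value below changed its call, the cause was not tested.

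The number of isolated sites, 1879 as reported, was between 1595 and 1995 under 13 alternatives, and by construction 4316 with a distance of 50 kb and 727 with 200 kb. The difference in reads near the summit, 1.01 points as reported, kept its sign with an unadjusted p under 0.05 under 15 of 22 alternatives, with 1.61 at a shift of 120 bp, 1.83 with 200 kb and 4.45 without merging. It did not pass at 0.572 with a read shift of 80 bp, 0.610 with at least 8 ChIP reads, 0.672 with no ChIP maximum, 0.502 with 50 kb, 2.19 at 30 to 39 reads and 0.616 with an outer window of 250 bp. Without a read shift it was -0.126. The difference on the predicted side, 0.385 points and not past the threshold, passed at 0.788 with at least 12 ChIP reads, 0.607 with at most 5 extract reads, 0.403 with 50 kb and 1.17 with 200 kb. It also passed at 2.48 without merging, 0.705 with summits from even-numbered reads, and 2.06, 1.20 and 2.08 at 10 to 14, 20 to 29 and 30 to 39 reads. Without a read shift it was -0.426. Strand-biased isolated sites, 0 as reported, numbered 37 without a read shift and 1 each with no ChIP maximum and with 50 kb.

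The ratio of sites per Mb at 100 to 500 kb, 0.389 as reported, stayed below 1. It was 0.398 without a shift, 0.370 with at least 8 and 0.408 with at least 12 ChIP reads, 0.420 with at most 5 extract reads, 0.367 without merging and 0.428 per Mb of bins holding a read. With 50 kb it was 0.539 and with 200 kb 0.190, where the first part of the window lies inside the distance that chose the sites. The ratio of extract reads, 0.777 as reported, was 0.775 with a shift of 80 bp, 0.780 without one, 0.774 with bins moved by 500 bp, 0.753 with at least 8 and 0.793 with at least 12 ChIP reads. It was 0.775 with no ChIP maximum, 0.807 with at most 5 and 0.776 with at most 20 extract reads, 0.775 with no extract maximum and 0.772 without merging. It was 0.848 with 50 kb, 0.691 with 200 kb, 0.767 without chromosomes 1 and 4 and 0.782 without read-poor surroundings. The outer window, the read-poor surroundings, the scaling to bins holding a read and 2 other offset windows were chosen after seeing the data.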

Other observations

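Among isolated sites, 6 held reads of 1 strand only (0.319%), beside 19 neighboured sites (0.0858%). Within 100 kb of these sites, a median of 74.2% of 1-kb bins around the 6 isolated sites held no read of either library, against 8.5% around the 19 neighboured sites. At chr16:3266001-3267000, 0 plus-strand and 15 minus-strand reads were found (exact binomial test, two-sided, p = 6.1e-05, adjusted p = 0.159 over all sites). At chr4:145391001-145392000 there were 15 and 0 (p = 6.1e-05, adjusted p = 0.159), and at chr1:87412001-87413000 there were 12 and 0 (exact p = 0.00049, adjusted p = 0.464). The other 3 one-strand isolated sites, on chromosomes 3, 4 and 18, held 10 reads each. More than 50% of bins without a read surrounded 32 isolated sites (1.70%) and 27 neighboured sites (0.122%), and 4 of the 6 one-strand sites were among the 32. The part of these read-poor surroundings in the strand pattern was not tested.

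Isolated sites were a larger share of sites near the start of the chromosomes, where mouse chromosomes carry their centromere. With each chromosome's covered length cut into 5 equal parts, 10.8% of sites of 10 to 39 reads were isolated in part 1 (95% interval 9.79 to 11.8), 10.2% in part 2, 8.10% in part 3, 7.39% in part 4 and 4.88% in part 5 (4.38 to 5.42). Sites of 10 to 39 reads numbered 3794 in part 1 and 6789 in part 5, while isolated sites numbered 408 and 331.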
